A study of Homo sapiens with 8 samples.

Results

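The genes for 10 MAP kinase phosphatases, DUSP1 and 9 of its paralogs (DUSP4, DUSP5, DUSP6, DUSP7, DUSP8, DUSP9, DUSP10, DUSP14 and DUSP16), were read by symbol from the deposited expression tables. All 10 symbols were found among the 17076 genes listed, and all 10 passed the filter on low values described below. RNA-seq covered 4 groups of 2 libraries, all from Huh7, a human liver cancer cell line. Cells that received a scrambled siRNA (siControl) were the reference for cells that received an siRNA against UPF1 (siUPF1). Cells that received a MYC-tag control vector (MYC) were the reference for cells that received a vector for MYC-tagged UPF1 (MYC-UPF1). UPF1 is an RNA helicase required for nonsense-mediated mRNA decay (NMD). No label says whether the 2 libraries of a group came from separate cultures, so p-values measure the spread between libraries, which may be technical.

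MAP kinases are switched on when a kinase phosphorylates a threonine and a tyrosine in their activation loop, and dual specificity phosphatases switch them off by removing both phosphates. Nuclear members such as DUSP1, DUSP4 and DUSP5 are transcribed in response to growth factors and stress, which makes them part of a negative feedback loop. DUSP6, DUSP7 and DUSP9 are cytoplasmic and act mainly on ERK, whereas DUSP8, DUSP10 and DUSP16 act mainly on JNK and p38. DUSP14 is a small atypical member that lacks the domain by which the others dock on MAP kinases. The study picked DUSP1 from the transcripts that changed in both comparisons of these same libraries, as a known tumor suppressor in liver cancer. The test of DUSP1 is therefore not independent of its choice, and its paralogs show whether the family moved with it. For overexpression, the study also measured DUSP1 by RT-qPCR, western blot and immunofluorescence, and followed its mRNA after transcription was blocked.

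DUSP1 (chromosome 5, 172195099 to 172198198 on the minus strand of GRCh37, also called hg19) is induced through cAMP response elements (CRE) in its promoter. The promoters that RefSeq gives on GRCh38.p14, from 250 bases before to 50 after the gene start, were searched on both strands for TGACGTCA, the full CRE. DUSP4 and DUSP5 have no promoter entry and were not searched. Of the 8 members with a promoter entry, DUSP1 held 1 full CRE and DUSP8 held 2, against 1.85% of all 35116 promoters. The windows are shown because DUSP1 is the member that moved in both comparisons. DUSP8 is the paralog that shares the element among those searched. They are printed on the strand of the gene, with the matched letters in capitals. On GRCh37 they lie at chr5:172198305-172198334 for DUSP1 and at chr11:1593601-1593630 and chr11:1593557-1593586 for DUSP8, all on the minus strand.
DUSP1 CRE: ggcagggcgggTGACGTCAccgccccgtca
DUSP8 distal CRE: ccgggctccgcTGACGTCAcctgcccccga
DUSP8 proximal CRE: ttggctgcaggTGACGTCAggggctttttt

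The half-site TGACG, which each full CRE contains on both strands, was found in 24.6% of all promoters. Outside the full CRE, DUSP1 held 2 half-sites and DUSP10 held 1, printed below with their matched letters in capitals. They lie at chr5:172198354-172198383, chr5:172198293-172198322 and chr1:221910230-221910259 on GRCh37, each on the minus strand. Among the member entries TATAAA was found for DUSP1 only, which 11.5% of promoters held. GGGCGG, the core of SP1 sites, was found for every member with an entry except DUSP6, and in 45% of all promoters. A CArG box, the target of SRF, was found in none of the member entries and in 1.29% of all promoters. These matches describe letters and show no binding.
DUSP1 distal half-site: gctccgaggctgaTGACGtctccccctctg
DUSP1 proximal half-site: gacgtcaccgcccCGTCAcgtgatcaccat
DUSP10 half-site: cactgcgaggcctCGTCAttttcgagttgg

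In the transcript that GENCODE marks as canonical, DUSP1 is 2013 bases long with 4 exons and a GC content of 55.2%. Its 3′UTR of 666 bases holds 4 copies of ATTTA, the core of AU-rich elements that mark mRNAs for rapid decay. This is 6.01 copies per kilobase, against a median of 1.69 over 13130 genes. DUSP14 had 4.77 copies per kilobase and DUSP10 had 3.04. DUSP5 and DUSP7 had 0 copies in 3′UTRs of 1107 and 1896 bases. DUSP16 had the longest transcript of the members, 6661 bases, with 8 copies. DUSP10 alone among the members has transcripts annotated as NMD substrates, 3 of its 4, while 39.8% of all genes matched have at least 1. The gene-level values do not separate these transcripts. On GRCh37, DUSP5 lies on chromosome 10 from 112257665 to 112271291 (plus strand) and DUSP7 on chromosome 3 from 52082935 to 52090587 (minus strand). DUSP16 lies on chromosome 12 from 12626216 to 12715797 and DUSP8 on chromosome 11 from 1575281 to 1593501, both on the minus strand.

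The labelled cell type was checked first. The hepatocyte markers ALB and AFP ranged from 6550 to 8371 FPKM and from 11093 to 12505 FPKM over the 8 libraries. Of 8 markers of fibroblasts, endothelium and leukocytes, 5 were not in the tables, and the highest value of the others was 3.84 FPKM for CD68. FPKM scales fragments by exon length and by the library total, so levels can be compared between genes. UPF1 was at 44.5 and 47.4 FPKM in siControl and at 20.7 and 21.9 FPKM in siUPF1 (log2 fold change -1.07, limma adjusted p = 0.0308). It was at 45.1 and 57.4 FPKM in MYC and at 2835 and 2484 FPKM in MYC-UPF1 (log2 fold change 5.68, limma adjusted p = 8.91e-09). The MYC libraries correlated with each other at 0.9961 across genes on log2(FPKM + 1), and each stood closer to a MYC-UPF1 library, replicate 1 to MYC-UPF1 replicate 2 (0.9977) and replicate 2 to MYC-UPF1 replicate 1 (0.9974). Values without single libraries are therefore given for results of that comparison. The depth of the libraries is unknown, because the tables hold no read numbers. Fewer cells expressing a gene and less RNA per cell cannot be told apart in these bulk samples.

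The phosphatases covered a wide range of levels in Huh7 cells. DUSP9 was the highest in every group, at 146 ± 0.637 FPKM (SD, n = 2) in siControl, where it made up 64.1% of the summed FPKM of the 10 genes and exceeded 97.8% of all genes. A tier of DUSP14, DUSP6 and DUSP5 followed in every group, with group means between 14.8 and 22.03 FPKM. DUSP1 and DUSP16 came next, with group means from 6.53 to 11.6 FPKM, joined in the vector groups by DUSP7 at 6.98 ± 0.680 FPKM in MYC and 6.52 ± 0.382 FPKM in MYC-UPF1 (SD, n = 2). DUSP10, DUSP8 and DUSP4 were lowest, with group means between 1.12 and 2.38 FPKM. Neighbours in this order did not overlap in siControl or MYC-UPF1, but DUSP14 and DUSP5 overlapped in siUPF1, as did DUSP10 and DUSP8. In MYC, DUSP5 overlapped with DUSP6, DUSP7 with DUSP1, and DUSP4 with DUSP10. DUSP1 was at rank 5 in siControl and MYC-UPF1, at rank 6 in siUPF1 and at rank 7 in MYC.

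**Figure D1:**
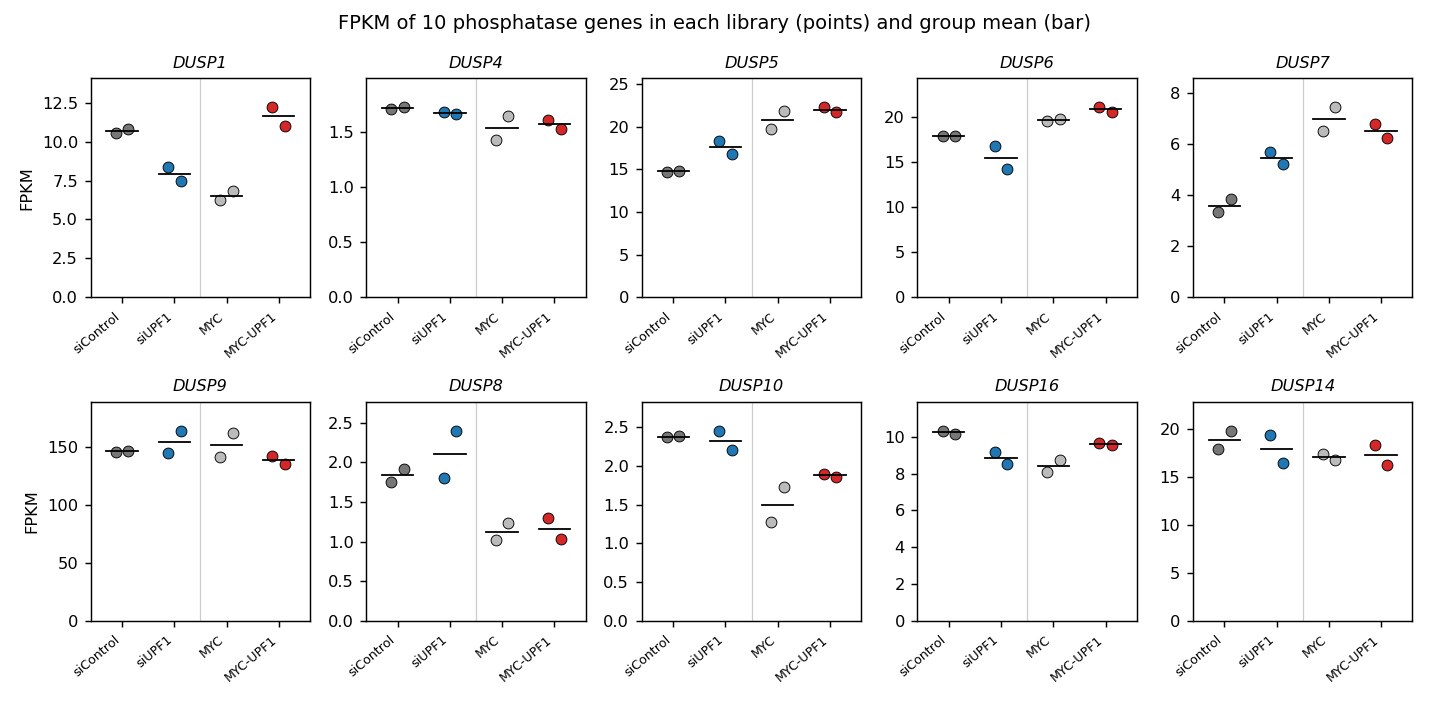
FPKM (y axis, from 0, a separate scale for each gene) of the 10 phosphatase genes in the siControl, siUPF1, MYC and MYC-UPF1 groups (x axis), with 1 point per library and a bar at the mean of 2. DUSP1 is lowest in the 2 MYC libraries, at 6.23 and 6.83 FPKM, and highest in the 2 MYC-UPF1 libraries, at 12.2 and 11.03 FPKM.

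The first comparison asked how the phosphatases respond to loss of UPF1. Values were tested with limma on log2(FPKM + 1) over the 13535 genes with a mean of at least 0.5 FPKM, and fold changes below are on that scale, which understates the change of low genes. After depletion, DUSP1 fell, DUSP5 and DUSP7 rose, and the other 7 members did not pass an unadjusted limma p of 0.05. This threshold was passed by 21.5% of all genes tested, with 16% higher and 5.51% lower, so 3 of 10 members is near the background. The split of higher against lower calls depended on scaling, from 2162 and 746 genes to 1417 and 1408 with quantile normalization, 1602 and 1271 with median centring, and 1478 and 1513 with the GC and length trend removed. After Benjamini-Hochberg adjustment 0 of the 10 passed 0.05, against 0.0369% of all genes. The number past the unadjusted threshold was 1 without siControl replicate 2 (DUSP7) and 5 without siUPF1 replicate 1 (DUSP1, DUSP6, DUSP7, DUSP8 and DUSP16), where 12.6% and 43.6% of all genes passed. The median log2 fold change of the members was -0.024, and that of all genes was 0.057. In groups of this size the smallest two-sided p of an exact permutation test is 0.333, so the p-values below depend on the spread that limma borrows from other genes.

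DUSP1, the nuclear phosphatase that acts on p38, JNK and ERK, was at 10.5 and 10.8 FPKM in siControl and at 8.39 and 7.49 FPKM in siUPF1. The siUPF1 libraries were both below the controls. The log2 fold change was -0.39 (standard error 0.0966, 95% interval -0.62 to -0.16, limma unadjusted p = 0.00524, adjusted p = 0.112). Without siControl replicate 2 it was -0.37 and no longer passed (limma unadjusted p = 0.0511, adjusted p = 0.4003). With a library left out, 1 group holds a single library that is assumed to vary like the other group, which alone supplies the spread. The adjusted p in such fits ranged from 0.000467 without siUPF1 replicate 1, where 43.6% of all genes passed unadjusted, to 0.416 without siControl replicate 1, where 10.6% did.

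The other nuclear members did not pass as lower. DUSP5, which acts on ERK, was at 14.7 and 14.8 FPKM in siControl and at 18.4 and 16.8 FPKM in siUPF1, so that both treated libraries were higher. Its log2 fold change was 0.24 (standard error 0.0934, limma unadjusted p = 0.0393, adjusted p = 0.213). This call was lost with quantile normalization (0.18), with the trend in GC content and length removed (0.091), and without siControl replicate 1 (0.23), siControl replicate 2 (0.24) or siUPF1 replicate 1 (0.18). DUSP4 was at 1.72 and 1.73 FPKM in siControl and at 1.68 and 1.67 FPKM in siUPF1. These groups did not overlap, but the log2 fold change was -0.025 with a 95% interval of -0.25 to 0.20 (limma unadjusted p = 0.799).

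Among the cytoplasmic ERK phosphatases, DUSP7 rose. It was at 3.32 and 3.85 FPKM in siControl and at 5.68 and 5.21 FPKM in siUPF1, and the groups were well apart. The log2 fold change of 0.49 (standard error 0.104, limma unadjusted p = 0.00212, adjusted p = 0.0844) passed the unadjusted threshold under all 14 alternatives and was 0.29 after removal of the GC and length trend. DUSP6, itself a target of ERK signaling, was at 17.9 FPKM in both siControl libraries and at 16.7 and 14.2 FPKM in siUPF1. Its log2 fold change of -0.20 (95% interval -0.45 to 0.047, limma unadjusted p = 0.0956) did not pass. It was -0.093 without siUPF1 replicate 2, and -0.31 and past the threshold without siUPF1 replicate 1. It passed with each library centred on its median, at -0.24 (limma unadjusted p = 0.0439, adjusted p = 0.225). It also passed with quantile normalization (-0.25) and with the GC and length trend removed (-0.23). DUSP9 was at 146 and 147 FPKM in siControl and at 145 and 164 FPKM in siUPF1, which overlap.

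Of the JNK and p38 phosphatases, DUSP16 was at 10.3 and 10.2 FPKM in siControl and at 9.18 and 8.53 FPKM in siUPF1. Both treated libraries were lower, with a log2 fold change of -0.19 (95% interval -0.41 to 0.026, limma unadjusted p = 0.0758) that did not pass. With median centring it was -0.23 and passed (limma unadjusted p = 0.0315, adjusted p = 0.202), as it did without siUPF1 replicate 1 (-0.24). DUSP8 was at 1.75 and 1.92 FPKM in siControl and at 1.81 and 2.40 FPKM in siUPF1, and passed without siUPF1 replicate 1 (0.26). DUSP10 was at 2.37 and 2.39 FPKM against 2.45 and 2.20 FPKM. Both overlapped between the groups, as did the atypical DUSP14 at 18.0 and 19.8 FPKM against 19.4 and 16.5 FPKM. In all, 6 of the 10 members did not overlap between the groups, against 56% of all genes, with 2 above both controls (37.5% of all genes) and 4 below (18.5%).

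After depletion, log2 fold changes were higher in genes of higher transcript GC content (Spearman correlation 0.564 across 12509 genes of the same 4 libraries). Genes were divided into 10 bands of equal number by GC content. In the band that holds DUSP1 and DUSP5, from 54.8% to 58.1% GC, 25.7% of genes rose and 1.44% fell at the unadjusted threshold. In the band that holds DUSP7, from 58.1% to 61.6% GC, 35.2% rose. DUSP8 and DUSP9, at 66.3% and 65.6% GC, lay in the band where 42.2% rose, and their log2 fold changes of 0.12 and 0.076 were below the median of 0.26 there. With the trend in GC content and length removed, DUSP1 fell by 0.52 on the log2 scale (limma adjusted p = 0.0283). DUSP8 and DUSP9 turned to -0.19 and -0.21 and passed as lower (limma unadjusted p = 0.0375 and 0.0152, adjusted p = 0.184 and 0.121). DUSP6 and DUSP16 passed as lower as well, at -0.23 and -0.25 (limma unadjusted p = 0.0182 and 0.00671, adjusted p = 0.130 and 0.0880). In that fit 5 of the 10 members passed as lower and 1 as higher, where 1513 and 1478 of the 12509 genes did.

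**Figure D2:**
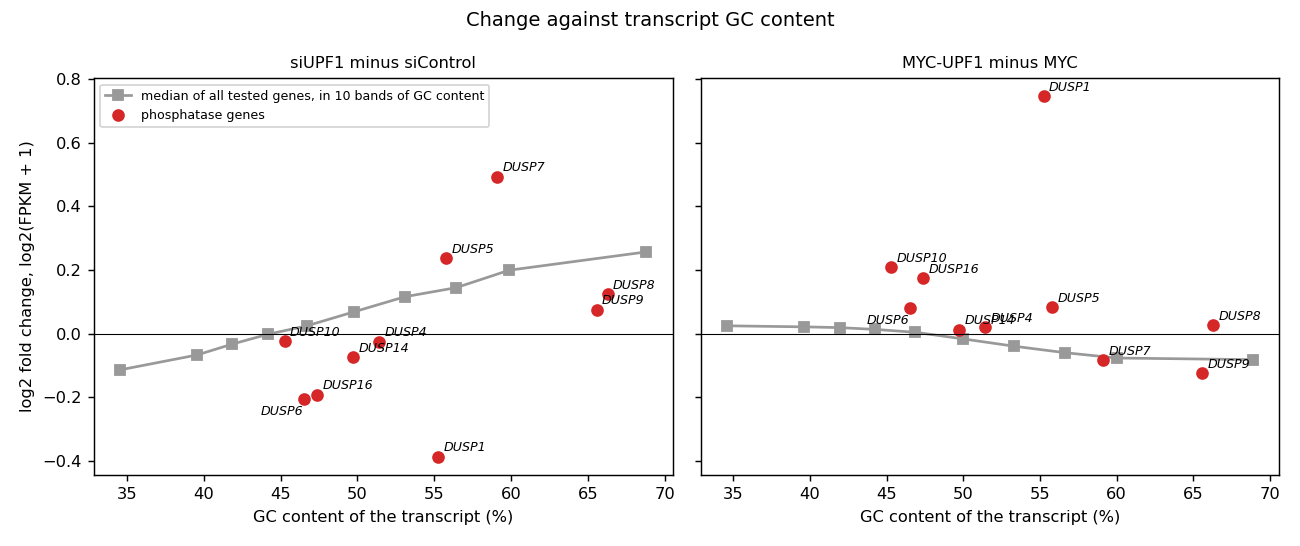
Log2 fold change on log2(FPKM + 1) (y axis) against GC content of the canonical transcript in percent (x axis) for siUPF1 minus siControl (left) and MYC-UPF1 minus MYC (right). Red points are the 10 phosphatase genes and grey squares the medians of all tested genes in 10 bands of GC content, drawn at the middle of each band's range; DUSP1 lies below the grey line on the left, at -0.39, and above it on the right, at 0.75.

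The second comparison asked how the phosphatases respond to added UPF1. After overexpression DUSP1 rose and the other 9 members did not pass an unadjusted limma p of 0.05, over 13251 genes tested. Here 1.43% of all genes passed that threshold, with 0.619% higher and 0.807% lower. The share was 9.26% in a fit that paired MYC replicate 1 with MYC-UPF1 replicate 2 and MYC replicate 2 with MYC-UPF1 replicate 1. After adjustment 0 of the 10 passed 0.05, against 0.00755% of all genes. The median log2 fold change of the members was 0.054, and that of all genes was -0.014. DUSP1 was at 6.23 and 6.83 FPKM in MYC and at 12.2 and 11.03 FPKM in MYC-UPF1, so that the lower treated library was well above the higher control. The log2 fold change was 0.75 (standard error 0.117, 95% interval 0.48 to 1.01, limma unadjusted p = 0.000102, adjusted p = 0.194). It passed the unadjusted threshold under all 14 alternatives, between 0.68 and 0.82, with adjusted p from 0.000699 to 1.00. Across genes, GC content and log2 fold change correlated at -0.451 here (Spearman, 12290 genes), and in the GC band that holds DUSP1, 0.57% rose.

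No other member passed the test after overexpression. DUSP4 was at 1.43 and 1.65 FPKM in MYC and at 1.62 and 1.53 FPKM in MYC-UPF1, and DUSP5 was at 19.7 and 21.8 FPKM against 22.3 and 21.7 FPKM, which overlap. DUSP7, which had risen after depletion, was at 6.50 and 7.46 FPKM in MYC and at 6.79 and 6.25 FPKM in MYC-UPF1. Its log2 fold change was -0.083 with a 95% interval of -0.36 to 0.19. DUSP9 was at 142 and 162 FPKM in MYC and at 143 and 136 FPKM in MYC-UPF1. DUSP8, at 1.01 and 1.23 FPKM against 1.29 and 1.03 FPKM, and DUSP14, at 17.4 and 16.8 FPKM against 18.3 and 16.3 FPKM, overlapped as well.

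DUSP6, DUSP10 and DUSP16 were higher in both MYC-UPF1 libraries than in both controls without passing the test. DUSP16 was at 8.08 and 8.73 FPKM in MYC and at 9.65 and 9.57 FPKM in MYC-UPF1, a log2 fold change of 0.17 (95% interval -0.075 to 0.42, limma unadjusted p = 0.148). DUSP10 was at 1.27 and 1.73 FPKM against 1.90 and 1.86 FPKM, a log2 fold change of 0.21 (95% interval -0.075 to 0.49, limma unadjusted p = 0.131), and it was 0.078 without MYC replicate 1 and 0.34 without MYC replicate 2. DUSP6 was at 19.6 and 19.7 FPKM against 21.1 and 20.6 FPKM, a log2 fold change of 0.081. Together with DUSP1, 4 of the 10 members lay above both controls and 0 below, against 8.88% and 11.8% of all genes. DUSP5 and DUSP16 passed the unadjusted threshold as higher after removal of the GC and length trend, where 3.26% of the genes tested passed. Crossing the replicate numbers let DUSP10 and DUSP16 pass as higher and DUSP9 as lower (-0.12), where 9.26% passed. Leaving out MYC replicate 1 gave -0.22 for DUSP9, and leaving out MYC replicate 2 gave 0.34 for DUSP10.

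**Figure D3:**
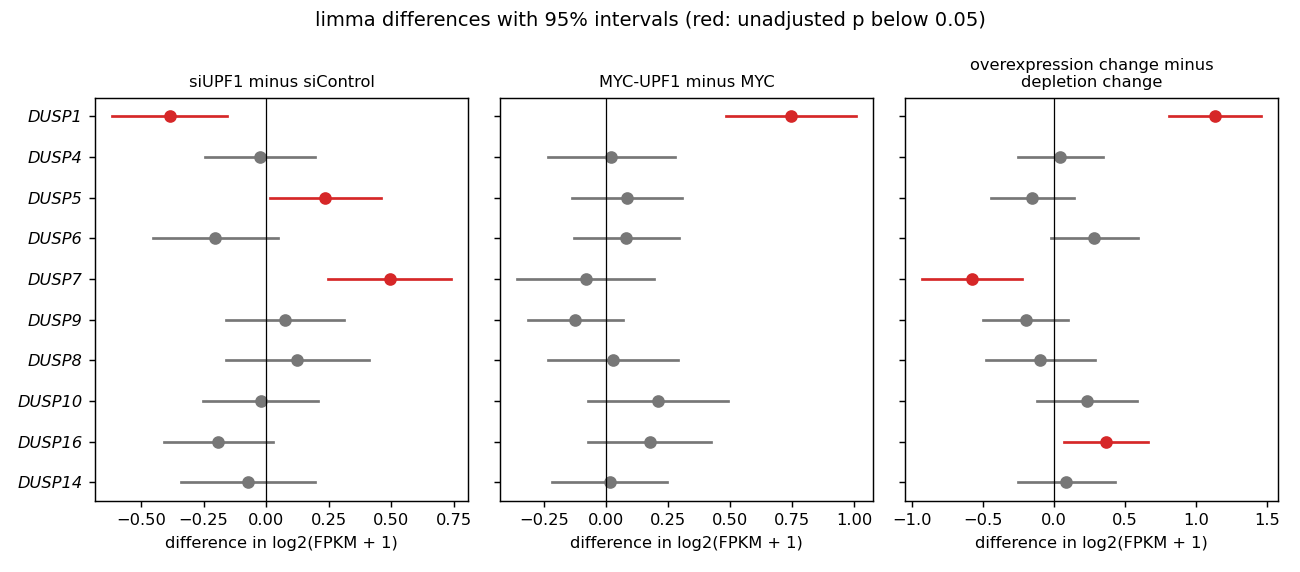
Differences in log2(FPKM + 1) (x axis) from limma for the 10 phosphatase genes (rows) after depletion (left), after overexpression (middle) and for the overexpression change minus the depletion change (right). Points are estimates, lines are 95% intervals and red marks an unadjusted p below 0.05; DUSP1 is red in all 3 panels, at -0.39, 0.75 and 1.13.

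The difference between both responses was tested directly in a fit of all 8 libraries, over 13412 genes. The change with overexpression exceeded the change with depletion by 1.13 on the log2 scale for DUSP1 (standard error 0.145, limma unadjusted p = 1.53e-05, adjusted p = 0.0514). It was 0.37 for DUSP16 (standard error 0.132, limma unadjusted p = 0.0199, adjusted p = 0.251). For DUSP7 it was -0.58 (standard error 0.158, limma unadjusted p = 0.00455, adjusted p = 0.188). Thus 3 of the 10 members passed the unadjusted threshold, 2 higher and 1 lower, against 15.2% of all genes (3.4% higher and 11.8% lower), and 0 passed after adjustment, against 0.0224%. DUSP1 and DUSP7 passed the unadjusted threshold under all 17 alternatives. DUSP16 did not pass under 6 of them, among them the fits without siControl replicate 1, siControl replicate 2, siUPF1 replicate 2, MYC replicate 1 or MYC-UPF1 replicate 1.

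The control groups of the 2 comparisons were not at the same level. DUSP1 was at 10.7 ± 0.179 FPKM in siControl and at 6.53 ± 0.423 FPKM in MYC (SD, n = 2), a ratio of 0.612. The MYC libraries were the lowest of all 8, below both siUPF1 libraries, and the MYC-UPF1 mean of 11.6 ± 0.849 FPKM (SD, n = 2) was near that of siControl. DUSP7 was 1.95 times as high in MYC as in siControl and DUSP5 was 1.41 times as high, while DUSP8 and DUSP10 were at ratios of 0.611 and 0.631. Of the 10 members, DUSP9 alone overlapped between the control groups. DUSP5, DUSP6 and DUSP7 were higher in both MYC libraries and the other 6 were lower, while 66.9% of 13359 genes did not overlap between these groups, with 25.6% higher and 41.3% lower in MYC. The control groups differ in the transfected nucleic acid and in the comparison they belong to, which cannot be told apart.

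Over the 8 libraries, DUSP16 was the member whose log2(FPKM + 1) followed DUSP1 most closely (Pearson correlation 0.889, across the 4 groups). DUSP5 and DUSP7 correlated with each other at 0.948, and DUSP4 and DUSP10 at 0.902. These values describe 8 libraries that share group differences and carry no test. Among 6391 genes with a mean of at least 0.5 FPKM and enough spread, those most like DUSP1 were TRIB1 (0.940), RASD1 (0.937), MIR122 (0.852), GEM (0.850) and ATF3 (0.824). MIR122 is the gene of the liver microRNA miR-122, and GEM encodes a small GTP-binding protein. TRIB1 encodes a pseudokinase that binds MAP kinase kinases, and was at 4.83 and 5.42 FPKM in MYC and at 9.45 and 8.10 FPKM in MYC-UPF1. In siControl it was at 7.41 and 7.39 FPKM and in siUPF1 at 7.55 and 6.03 FPKM, so that these groups overlapped. RASD1, a Ras-related GTPase gene, was lowest in the MYC libraries as well, at 1.42 and 2.43 FPKM, and at 5.49 and 4.86 FPKM in MYC-UPF1. In siControl RASD1 was at 4.76 and 4.29 FPKM, and both siUPF1 libraries were lower, at 3.32 and 3.48 FPKM. MIR122, GEM and ATF3 overlapped between siControl and siUPF1, as TRIB1 did.

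**Figure D4:**
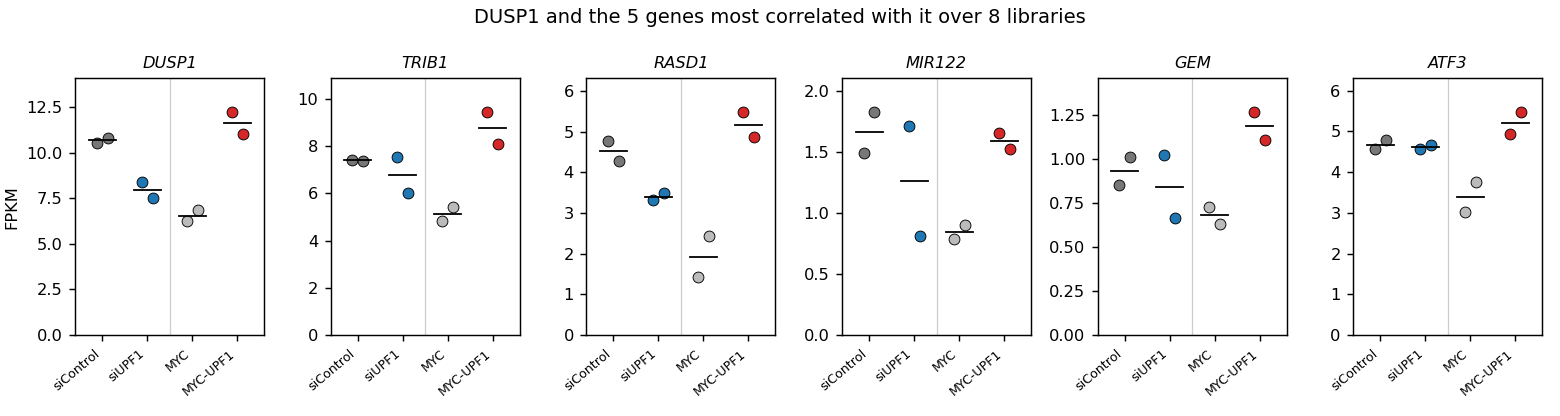
FPKM (y axis, from 0, a separate scale for each gene) of DUSP1 and of the 5 genes with the highest Pearson correlation with it over 8 libraries, by group (x axis), with 1 point per library and a bar at the mean of 2. Both MYC libraries lie below both MYC-UPF1 libraries in DUSP1 and in all 5. The 5 were picked for following DUSP1 in these same libraries, so this shared order is no separate evidence.

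The genes around the phosphatases were read from 5 lists, and list genes that the tables do not hold are not analysed here. The substrates and their activators, the MAP kinases and MAP kinase kinases, had 15 members tested after depletion, of which 3 rose, against 16% of all genes, and 2 fell, against 5.51%, by the unadjusted threshold. Without siUPF1 replicate 1 the number that passed was 11, where 43.6% of all genes did, and without siControl replicate 1 it was 3, where 10.6% did. The rises were MAPK12 and MAPK11, both p38 isoforms, and MAPK7, which encodes ERK5. MAPK11 was at 0.346 and 0.360 FPKM in siControl and at 0.665 and 1.05 FPKM in siUPF1. Its controls lay below the minimum of 0.5 FPKM, so only its siUPF1 values brought it into the test. MAPK12 went from 13.9 and 17.4 to 19.6 and 25.9 FPKM and did not pass without siControl replicate 1 (0.35), and MAPK11 did not without siUPF1 replicate 2 (0.30). After removal of the GC and length trend MAPK11 did not pass (0.20, limma unadjusted p = 0.0647) and MAPK12 passed at 0.26. MAP2K1, which activates ERK, fell from 20.7 and 22.6 to 16.6 and 14.4 FPKM (log2 fold change -0.46, limma adjusted p = 0.0988). Its paralog MAP2K2, which also activates ERK, was at means of 69.9 FPKM in siControl and 75.3 FPKM in siUPF1. Its groups overlapped and it did not pass (log2 fold change 0.10, limma unadjusted p = 0.399). MAP2K6, which activates p38, fell from 1.99 and 2.04 to 1.38 and 1.21 FPKM (log2 fold change -0.39, limma adjusted p = 0.112). MAP2K3, which also activates p38, overlapped between the groups, at means of 13.7 FPKM in siControl and 14.2 FPKM in siUPF1. Its log2 fold change was 0.047 (limma unadjusted p = 0.675). MAPK3 was at 9.003 and 9.17 FPKM in siControl and at 11.1 and 10.2 FPKM in siUPF1, higher in both treated libraries without passing (limma unadjusted p = 0.0589). After overexpression 0 of the 16 tested passed in limma, and 2 did without MYC replicate 1, where 5.87% of all genes passed.

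Genes that ERK signaling induces or that feed back on it were next. After depletion 3 of 12 rose and 0 fell, against 16% and 5.51% of all genes. Without siUPF1 replicate 1 the number that passed was 7, and it was 1 without siControl replicate 1 or siControl replicate 2, where 43.6%, 10.6% and 12.6% of all genes passed. CCND1, which encodes cyclin D1, rose from 71.0 and 72.4 to 90.7 and 100.2 FPKM (log2 fold change 0.41, limma adjusted p = 0.101), and the transcription factor ETV5 rose from 7.99 and 8.25 to 10.6 and 10.2 FPKM (0.32, limma adjusted p = 0.133). ETV5 did not pass without siControl replicate 1 (0.30) or siControl replicate 2 (0.34). The receptor EPHA2 also passed, at 0.25, but not without siControl replicate 1 (0.18) or siControl replicate 2 (0.31), and it was 0.023 after removal of the GC and length trend. The feedback inhibitor SPRY4 was at 10.9 and 11.1 FPKM in siControl and at 10.6 and 10.4 FPKM in siUPF1 and did not pass. After overexpression 0 of 12 passed in limma (2 without MYC replicate 1, where 5.87% of all genes passed), and all 12 overlapped between the groups.

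Immediate early genes, like DUSP1, are transcribed within minutes of a stimulus. Of 16 tested after overexpression, 4 rose and 0 fell at the unadjusted threshold, where 0.619% of all genes rose, and the median log2 fold change of the 16 was 0.12. Without MYC replicate 1 or MYC-UPF1 replicate 2 the number that passed was 2, where 5.87% and 1.7% of all genes passed. ATF3, a stress-induced transcription factor gene, went from 3.02 and 3.76 to 4.94 and 5.48 FPKM, a change of 0.50 on the log2 scale (standard error 0.134, limma unadjusted p = 0.00414, adjusted p = 1.00). KLF6 went from 6.10 and 6.22 to 7.89 and 8.98 FPKM (0.40) and KLF4 from 0.679 and 0.948 to 1.41 and 1.33 FPKM (0.39). FOS went from 0.604 and 0.787 to 1.04 and 1.02 FPKM (0.26). In siControl, KLF6 was at 8.89 and 9.56 FPKM and KLF4 at 1.31 and 1.36 FPKM, so that both overlapped with MYC-UPF1. ATF3, at 4.56 and 4.78 FPKM in siControl, and FOS, at 0.789 and 0.745 FPKM, were higher in both MYC-UPF1 libraries. In MYC, all of these but FOS lay below both siControl libraries. ATF3 passed under all 14 alternatives, KLF4 not without MYC replicate 1 (0.29) and KLF6 not without MYC-UPF1 replicate 2 (0.31). FOS passed under 9 of 13 and did not without MYC replicate 1 (0.19), MYC-UPF1 replicate 1 (0.26) or MYC-UPF1 replicate 2 (0.27). JUN was at 14.3 and 18.5 FPKM in MYC and at 19.7 and 17.8 FPKM in MYC-UPF1, and EGR1 at 1.43 and 2.35 FPKM against 2.29 and 1.75 FPKM, which overlap.

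After depletion 4 of 17 immediate early genes rose and 0 fell, against 16% and 5.51% of all genes. Without siControl replicate 1 the number that passed was 2 and without siControl replicate 2 it was 1, where 10.6% and 12.6% of all genes passed. The 4 that rose were JUN, IER2, NR4A1 and SRF, of which none was among the 4 that rose with overexpression. JUN went from 19.0 and 20.4 to 24.0 and 26.0 FPKM (log2 fold change 0.33, limma adjusted p = 0.141) and did not pass without siControl replicate 1 (0.28). It passed at 0.17 after removal of the GC and length trend. After removal of the GC and length trend, SRF, NR4A1 and IER2 did not pass, at 0.0099, 0.099 and 0.16. Nor did they without siControl replicate 2, at 0.26, 0.32 and 0.37, and SRF and NR4A1 did not without siControl replicate 1 (0.22 and 0.31) or siUPF1 replicate 2 (0.19 and 0.22). FOS and EGR1 lay below both controls in both siUPF1 libraries, with log2 fold changes of -0.19 and -0.22 that did not pass (limma unadjusted p = 0.0976 and 0.0590). ATF3, which rose with overexpression, was at 4.56 and 4.78 FPKM in siControl and at 4.57 and 4.66 FPKM in siUPF1.

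**Figure D5:**
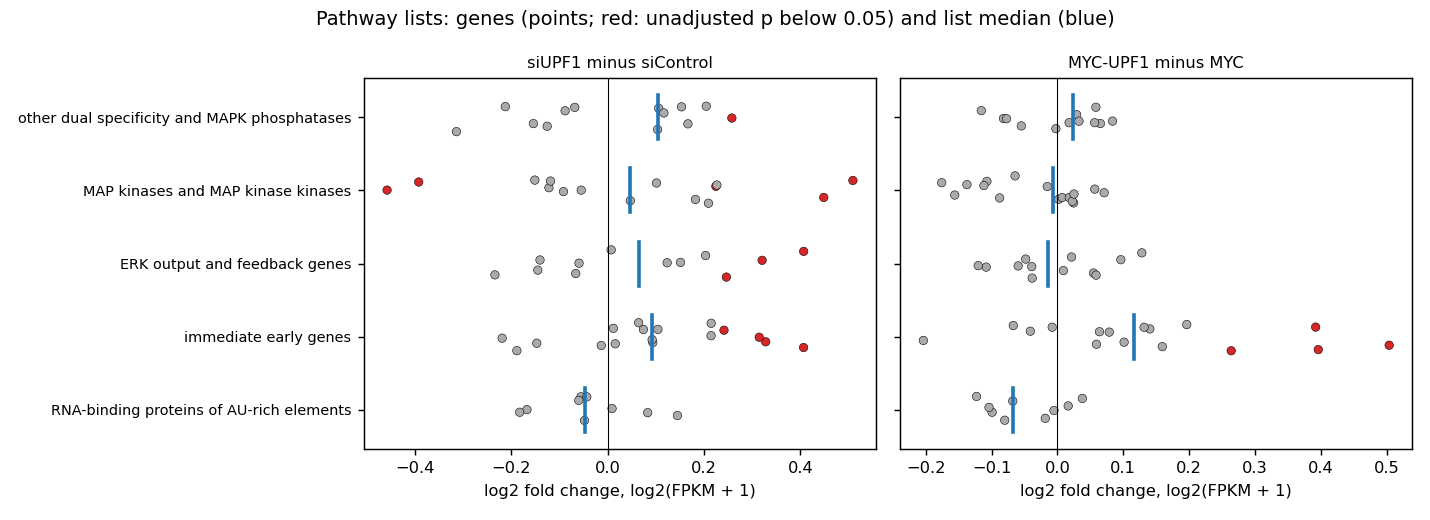
Log2 fold change on log2(FPKM + 1) (x axis) of each tested gene of the 5 lists (rows) for siUPF1 minus siControl (left) and MYC-UPF1 minus MYC (right), on separate x scales. Red points have an unadjusted p below 0.05 and blue lines are list medians; on the right, the 4 red points are ATF3, KLF6, KLF4 and FOS among the immediate early genes.

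The remaining phosphatases on the list, among them atypical dual specificity phosphatases and the PPM1 enzymes, were read as 1 list. After depletion 1 of 13 tested passed in limma, DUSP26, from 0.808 and 0.751 to 1.01 and 1.26 FPKM (log2 fold change 0.26), while 21.5% of all genes passed. DUSP26 did not pass in 7 of 13 alternatives, at 0.063 after removal of the GC and length trend, 0.17 with quantile normalization, 0.22 with median centring, 0.26 with the replicate block, 0.28 without siControl replicate 1, 0.23 without siControl replicate 2 and 0.17 without siUPF1 replicate 2. Without siUPF1 replicate 1, 4 of the list passed, where 43.6% of all genes did. DUSP3, an atypical member, was at 34.9 and 37.2 FPKM in siControl and at 40.6 and 37.2 FPKM in siUPF1, and DUSP22, which acts in the JNK pathway, was at 4.10 and 4.17 FPKM against 4.90 and 4.93 FPKM with a log2 fold change of 0.20 (limma unadjusted p = 0.0565). After overexpression 0 of 12 passed in limma, against 1.43% of all genes. RNA-binding proteins that recognise AU-rich elements, among them ZFP36 and ELAVL1, which bind DUSP1 mRNA, were also read, and 0 of 9 passed the unadjusted limma p in either comparison, against 21.5% of all genes after depletion and 1.43% after overexpression. Without siUPF1 replicate 1, 3 of them passed after depletion, where 43.6% of all genes did. ZFP36, which promotes decay, was at 8.10 and 8.29 FPKM in siControl and at 8.27 and 6.22 FPKM in siUPF1. It overlapped in both comparisons. ELAVL1, which stabilizes its targets, had log2 fold changes of -0.043 after depletion and -0.12 after overexpression.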

How the data were processed

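Huh7 mRNA was sequenced from 2 libraries in each of 4 groups. Per the labels and the study's methods, the authors prepared libraries with a stranded mRNA kit, trimmed reads with Trimmomatic 0.38, aligned them to hg19 with HISAT2 2.1.0, assembled transcripts with StringTie 1.3.4d and deposited 1 FPKM value for each gene in each library. How the listed genes were chosen is not given in the sources used here. Series tables and single-library files held the same values, with 0 differences.

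Comparisons within each pair of groups used limma 3.58.1 (R 4.3.3; lmFit, eBayes with trend) on log2(FPKM + 1), over genes with a mean of at least 0.5 FPKM, with Benjamini-Hochberg adjustment over all of them. The study's threshold of 0.05 was used unadjusted and adjusted. The depth is unknown, since no read numbers are given. Members, lists and tests were chosen with earlier results of these data known. The genes named were the members, UPF1, up to 4 genes per list and comparison with the largest changes among those that passed without overlap, and the 5 genes most correlated with DUSP1 (standard deviation at least 0.5 times that of DUSP1). Any other gene in the text was picked with its values in view. Transcript features came from GENCODE release 44 on GRCh37 (15262 genes matched, all 10 members). The GC and length trend was removed by loess (span 0.5), a choice made after the data were seen, as was the crossed pairing. The method was tested on simulated data with independent noise in each library and 200 genes changed. With a log2 change of 0.4, 0% of these reached a limma adjusted p under 0.05 in any comparison. Unadjusted, 78.6% passed for depletion, 77.9% for overexpression and 61.7% for the difference. With a log2 change of 0.8, 56.6%, 60.2% and 49.7% passed after adjustment in the same order. In the data 2908 genes passed unadjusted after depletion, and libraries of unlike replicate number deviated together after overexpression. The simulation was not set that way, so its shares cannot be carried over to these comparisons. Figures were drawn in Python 3.11.15 with matplotlib 3.10.9. Values of 1 gene of the lists are not reported here.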

Additional observations from a re-analysis of the deposited data

Results flagged for a closer look

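For 3 members, the change with overexpression differed from that with depletion at the unadjusted threshold in the direct test over all 8 libraries. This threshold was passed by 15.2% of all genes, and 0 members passed after adjustment. DUSP1 differed by 1.13 on the log2 scale (limma unadjusted p = 1.53e-05, adjusted p = 0.0514), with both treated libraries below the controls after depletion and above them after overexpression. Over the 17 alternatives its adjusted p ranged from 0.00168 to 0.253. DUSP7 differed by -0.58 (limma unadjusted p = 0.00455, adjusted p = 0.188), with a rise after depletion and groups that overlapped after overexpression. DUSP16 differed by 0.37 (limma unadjusted p = 0.0199, adjusted p = 0.251) in the direction of DUSP1, and did not pass under 6 of the 17 alternatives. Neither of its changes passed the test on its own.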

How the results depend on the processing

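DUSP1 after overexpression, and DUSP7 after depletion, kept direction and side of the unadjusted threshold under all 14 alternatives. The number of members that passed after depletion was 3, where 21.5% of all genes passed. It was 5 with median centring (DUSP6 and DUSP16 added), where 21.2% passed. Once the GC and length trend was taken out it was 6, where 23.9% passed. After overexpression it was 1, where 1.43% of all genes passed, against 3 with that trend removed (3.26%) and 4 with the replicate numbers crossed (9.26%). For the difference between comparisons it was 3, where 15.2% of all genes passed, against 6 with that trend removed (16.5%). Pathway list genes that passed numbered 13 after depletion (from 6 to 30 with a library left out, where from 10.6% to 43.6% of all genes passed against 21.5%) and 4 after overexpression (7 with that trend removed, 7 with the crossed numbers, from 2 to 6 with a library left out). Leaving out a library gave DUSP1 from -0.46 to -0.31 after depletion and from 0.68 to 0.81 after overexpression.

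Some members that did not pass changed sign. Under the same removal of the GC and length trend, DUSP8 and DUSP9 were at -0.19 and -0.21 after depletion and passed as lower, and the difference between comparisons was 0.032 for DUSP5, 0.17 for DUSP9 and 0.31 for DUSP8, the last 2 past the unadjusted threshold. With a library left out, log2 fold changes after depletion ranged from -0.013 to 0.16 for DUSP9, from -0.015 to 0.26 for DUSP8, from -0.078 to 0.032 for DUSP10 and from -0.19 to 0.040 for DUSP14. After overexpression they ranged from -0.041 to 0.083 for DUSP4, from -0.059 to 0.11 for DUSP8, from -0.17 to 0.0036 for DUSP7 and from -0.067 to 0.094 for DUSP14. The difference between comparisons ranged from -0.23 to 0.042 for DUSP8, from -0.027 to 0.20 for DUSP14 and from -0.016 to 0.11 for DUSP4. The cause was not tested.

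Samples with the same replicate number did not deviate together (correlations of -0.129 for depletion and -0.569 for overexpression across genes). The negative value for overexpression means that libraries of unlike number deviated together there. In that comparison 1.43% of all genes passed unadjusted, below the 5.14% of unchanged genes that passed in the simulation with a log2 change of 0.4. With the replicate block, 2 members passed after depletion (19.1% of all genes), 1 after overexpression (1.28%) and 2 for the difference (10.4%). The block ended the calls of DUSP5 (limma unadjusted p = 0.0656) and of the difference for DUSP16. Over all genes, 2908 passed after depletion, and from 1435 to 5896 with a library left out. After overexpression 189 passed, against 409 without the FPKM minimum, 401 with the trend removed, 1227 with the numbers crossed and from 220 to 778 with a library left out. Depth was unknown and could not be set against any of these values.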

Other observations

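A few list genes had a mean below 0.5 FPKM in a comparison, so no test was made there. FOSL1, an ERK-induced AP-1 subunit gene, was at 0.296 and 0.333 FPKM in MYC and at 0.787 and 0.398 FPKM in MYC-UPF1, so that both treated libraries were higher. FOSB was at 0.434 and 0.532 FPKM in siControl and at 0.235 and 0.395 FPKM in siUPF1, both lower, and overlapped after overexpression. DUSP13, NR4A3 and SPRED3 were below that minimum in both comparisons.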
